A study of Mus musculus with 10 samples.

Results

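The genes described are those of the constitutive proteasome, the standard form of the complex that is present in most cells. They were taken as every gene name on the array made of Psma, Psmb, Psmc or Psmd and a number, without Psmb8, Psmb9 and Psmb10, the catalytic subunits of the immunoproteasome. This gave 36 of the 34650 gene names on the array, 16 of the core particle and 20 of the regulatory particle. One probe stood for each gene, the one with the highest mean signal. RNA levels were measured with 1-colour microarrays in C2C12 cells, myoblasts of a mouse muscle line whose cells can fuse into myotubes. One group received a mimic of miR-27a-3p, a small RNA duplex delivered to act as that microRNA, and the other received a scrambled sequence as its control. Both were given at 150 nM with a lipid reagent in growth medium with serum, and were examined 72 h later with an estimated transfection efficiency of 60%. The labels list 6 mimic and 4 scrambled replicates as independent transfections. However, the 10 files were 2 scans of each of 5 array positions on 1 slide, so both scans were averaged and n was 3 mimic and 2 scrambled arrays. The cells were a mixture of transfected and untransfected cells of 1 line, no untreated cells were analysed here, and in such bulk RNA fewer cells with a transcript and less RNA per cell cannot be told apart.

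The proteasome breaks down proteins that carry ubiquitin chains. Its core particle is a barrel of stacked rings: outer alpha rings (Psma genes), which form the gate, and inner beta rings (Psmb genes), which hold the proteolytic sites. The regulatory particle caps the barrel. Its base carries a ring of ATPases (Psmc1 to Psmc6) that unfold substrates and thread them into the core, and its lid (most Psmd genes) removes the ubiquitin chain. In skeletal muscle the ubiquitin-proteasome system is best known for breaking down contractile proteins during atrophy and for clearing regulatory proteins as myoblasts stop dividing and differentiate. Subunits are used in fixed proportions, and their genes are widely known to be transcribed in concert. MicroRNAs lower the level or translation of transcripts that pair with their seed, the bases near the 5′ end.

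The sequence supplied and the probes behind the values are shown first, because the seed defines the treatment and some genes had probes at more than 1 place in the transcript. The mature miR-27a-3p lies at chr8:84208727-84208747 on the plus strand of GRCm38.p6 (RefSeq), and its seed, bases 2 to 8, is in capitals. The probes are 60 bases long, are given 5′ to 3′ in the sense of the transcript, and each spans an exon junction of the named gene on mm9. The Psmb7 probe lies at chr2:38468966-38489385 (minus strand), the Psmc4 probe at chr7:28827132-28827373 (minus strand) and the Psmd11 probe at chr11:80283406-80283920 (plus strand). They stand for genes with some of the largest negative differences in the core, base and lid. The upstream probe of Psmd12 at chr11:107347092-107347728 (plus strand) gave another value than the probe that stood for the gene.
mmu-miR-27a-3p: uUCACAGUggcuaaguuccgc
Psmb7 probe: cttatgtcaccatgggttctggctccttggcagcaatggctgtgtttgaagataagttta
Psmc4 probe: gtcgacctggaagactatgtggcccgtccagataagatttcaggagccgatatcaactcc
Psmd11 probe: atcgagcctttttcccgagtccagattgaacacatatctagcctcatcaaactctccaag
Psmd12 upstream probe: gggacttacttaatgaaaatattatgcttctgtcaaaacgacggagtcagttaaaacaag

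Per file, 27.04% to 35.3% of the non-control spots passed as well above background, and 0 were saturated. Scrambled array 2 stood apart from the other arrays. Across 1383 transcripts with 2 probes at least 200 bases apart, the upstream minus downstream log2 signal deviated by a median of -0.08, -0.13 and -0.04 on mimic arrays 1 to 3, against -0.06 on scrambled array 1 and 0.32 on scrambled array 2. The mimic minus scramble difference was lower at the upstream than at the downstream probe in 69.4% of these transcripts, with a median gap of -0.23. For the proteasome genes and the partners named, at the probe that stood for the gene, the value without this array is given where leaving it out turned a sign or moved a difference by over 1.5 times, and its part in the results was not otherwise tested. Of the myoblast markers Myod1, Des, Cdh15 and Itga7 were well above background in every file, whereas Pax7 was in none and Myf5 in 1 of 6 mimic and 0 of 4 scrambled files. Of 7 markers of other cell types, Cd68 was well above background in every file and the other 6 in no file.

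No proteasome gene passed the test between mimic and scrambled cells. Of the 36 genes, 34 were well above background in all 10 files and were tested, and 0 of these 34 were called higher or lower by limma at an adjusted p under 0.05 (Benjamini-Hochberg over 13128 genes). Of all genes tested 5.11% were called, 2.77% as higher and 2.35% as lower with the mimic. Before adjustment, at a p under 0.05, 5 of the 34 had a negative difference (Psmc4, Psmd3, Psmd6, Psmd9 and Psmd11) and 0 a positive one, where the share of all genes was 14.1% in the negative and 11.2% in the positive direction. Differences, always mimic minus scramble on the log2 scale, where 1 unit is 2-fold, ran from -0.77 to 0.32 with a median of -0.12, against a median of -0.05 over all genes tested. The 95% interval lay within a 2-fold change in either direction for 32 of the 34 and within a 1.5-fold change for 16. Over all 13128 genes tested these counts were 8886 and 3420. Among the members the exceptions to the wider bound were Psmb7 and Psmd9. Calls of members depended on how the arrays were counted. With all 10 files as separate arrays, which counts each array as 2, 7 members were called lower (Psmb7, Psmc4, Psmd3, Psmd4, Psmd6, Psmd9 and Psmd11), where 19.4% of all genes were, and 1 higher (Psmc6), where 15.1% were. Without scrambled array 1, which leaves 1 scrambled array that is assumed to vary like the mimic arrays, 7 members were called lower (Psmb1, Psmb7, Psmc4, Psmd3, Psmd9, Psmd11 and Psmd13) and 2 higher (Psma3 and Psmc2), where 18.7% of all genes were lower and 14.4% higher. Without scrambled array 2 the members had a median difference of -0.09, with 26 of 34 negative, against a median of -0.03 over all genes. Psma8, an alpha subunit known from the testis, and Psmb11, a beta subunit of the thymus, were well above background in 0 of the 10 files and were not tested.

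**Figure D1:**
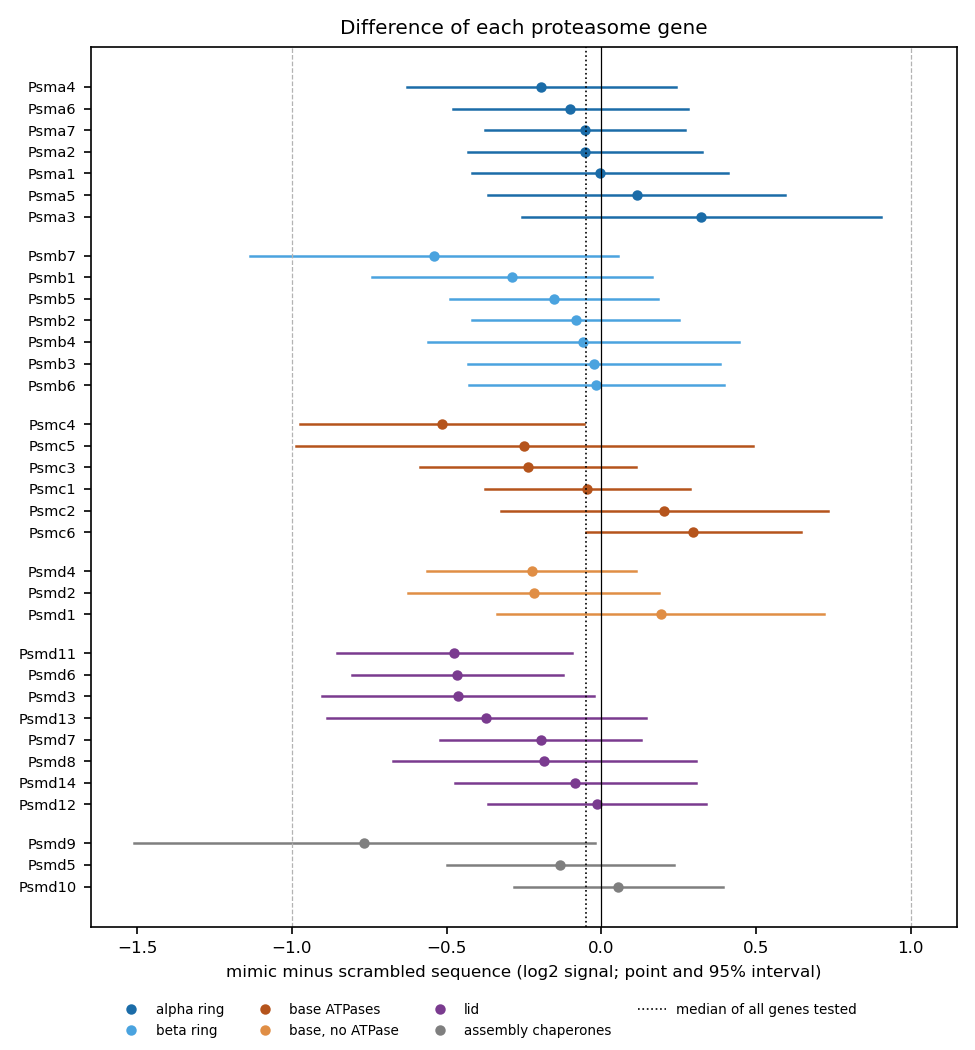
Mimic minus scramble difference of each of the 34 proteasome genes tested (x axis, log2 signal), grouped by place in the complex from the alpha ring at the top to the assembly chaperones at the bottom. Points are differences from 3 mimic and 2 scrambled arrays, bars are 95% intervals, dashed lines mark 2-fold, and the dotted line is the median of all genes tested (-0.05): the 8 lid genes all lie left of 0, although with the percentile taken over all probes 6 of the 8 did.

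The differences had more negative than positive signs, 28 of 34, but this split followed the scaling: with the 75th percentile of each file taken over all probes in place of the detected ones, 15 of 34 were negative. That scaling moved the median of all genes to 0.11, and the proteasome median to 0.04. Relative to the median of all genes the proteasome median was -0.07 under both scalings and -0.09 after quantile normalisation. Of all genes, 54.7% had a negative difference in the main scaling. In 11 proteasome genes all 3 mimic arrays lay below both scrambled arrays, and in 1, Psmc6, all 3 lay above, where 25.7% and 19.8% of all genes did so.

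The gate-forming alpha ring had a median difference of -0.05 over 7 tested genes (5 negative; 0.11 with the percentile over all probes), and none of its genes separated the groups. Each level below is a log2 signal from which the 75th percentile of the detected probes was subtracted, in the order of the arrays. Psma3 had 2.62, 2.73 and 2.40 with the mimic, against 2.59 and 1.92 with the scrambled sequence. Its low value on scrambled array 2 stood alone, and the difference was 0.32 ± 0.24 (SE; adjusted p = 0.419, limma); without that array it was -0.01. Psma5 followed the same pattern, with 1.21, 1.23 and 1.04 with the mimic and 1.30 and 0.79 with the scrambled sequence. Its difference of 0.11 ± 0.20 was -0.14 without scrambled array 2. Psma4 had -0.47, -0.49 and -0.59 with the mimic and -0.55 and -0.11 with the scrambled sequence. The groups overlapped, and the difference was -0.19 ± 0.18 (adjusted p = 0.514), or 0.03 without scrambled array 2. Psma1 had 0.85, 0.67 and 0.85 with the mimic and 0.98 and 0.62 with the scrambled sequence, so that the scrambled values enclosed the mimic values (difference -0.0048 ± 0.17). Without scrambled array 2 its difference was -0.19. Psma2, Psma6 and Psma7 had differences of -0.05, -0.10 and -0.05, each with overlapping groups, and of -0.19, 0.02 and -0.10 without that array.

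Beta ring differences were negative in 7 of 7 tested genes, with a median of -0.08; with the percentile over all probes 2 of 7 were negative and the median was 0.08. The ring holds the 3 catalytic subunits. Psmb5, which carries the chymotrypsin-like site, had 2.81, 2.93 and 2.80 with the mimic and 2.94 and 3.06 with the scrambled sequence. The groups were apart by a narrow gap, and the difference was -0.15 ± 0.14 (adjusted p = 0.505), or -0.10 without scrambled array 2. Psmb6, with the caspase-like site, had 2.34, 2.31 and 2.65 with the mimic and 2.37 and 2.53 with the scrambled sequence. Its groups overlapped fully and the difference was -0.02 ± 0.17, with a 95% interval of 0.743 to 1.32-fold; without scrambled array 2 it was 0.06. Psmb7, with the trypsin-like site, had -0.09, -0.11 and -0.04 with the mimic and 0.07 and 0.85 with the scrambled sequence. The 2 scrambled arrays differed by more from each other than the nearer one did from the mimic arrays. The difference of -0.54 ± 0.24 (adjusted p = 0.229, interval 0.455 to 1.04-fold) was -0.15 without scrambled array 2.

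Of the structural beta subunits, Psmb1 was like Psmb7 in its pattern over the arrays. It had 0.71, 0.67 and 0.75 with the mimic, 0.75 on scrambled array 1 and 1.25 on scrambled array 2. The difference was -0.29 ± 0.18 (adjusted p = 0.359) and -0.04 without the last of these arrays. Psmb2, Psmb3 and Psmb4 had differences of -0.08, -0.02 and -0.06, with overlapping groups in all 3, and of -0.01, -0.08 and -0.0057 without scrambled array 2.

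**Figure D2:**
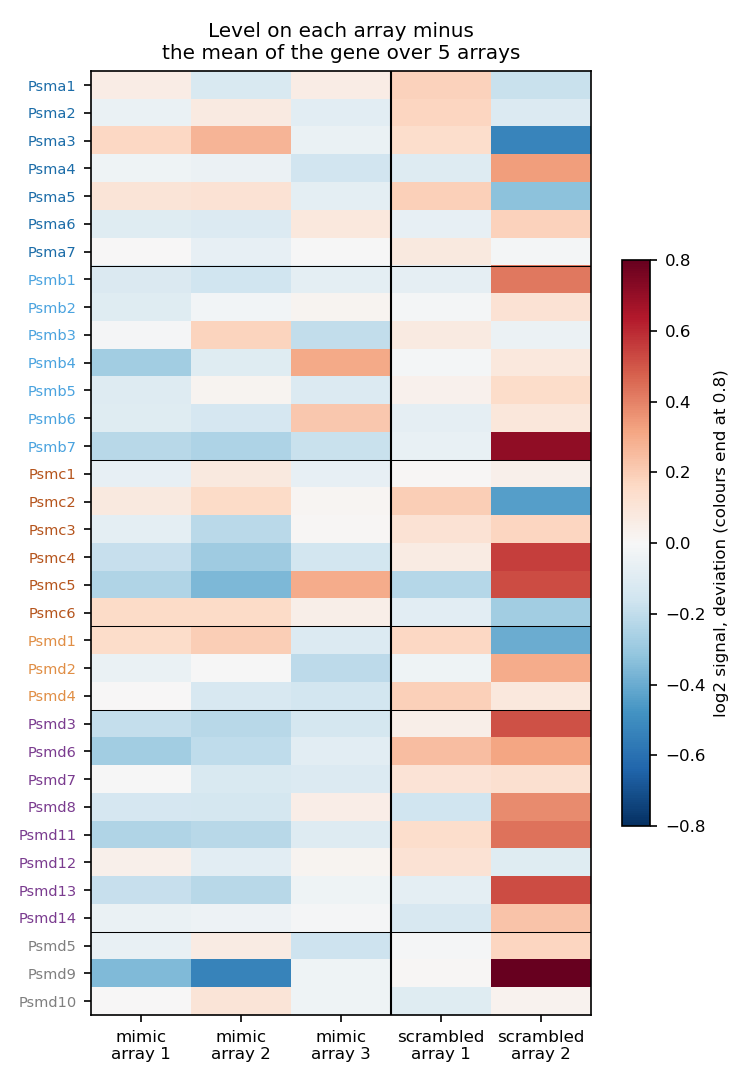
Level of each of the 34 genes (rows, from alpha ring at the top to assembly chaperones at the bottom) on each of 5 arrays (columns, 3 mimic and then 2 scrambled), as the log2 deviation from the mean of the gene over the arrays; red is above and blue below that mean. The strongest colours stand in the last column, where Psmb7 (0.85 against 0.07 on scrambled array 1) and Psmd9 are high and Psma3 (1.92 against 2.59) is low.

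Among the 6 ATPases of the base, which share 1 ring, the differences had both signs, with a median of -0.14 (0.02 with the percentile over all probes). Psmc4 had -0.51, -0.62 and -0.48 with the mimic, against -0.27 and 0.23 with the scrambled sequence. All mimic values lay below both scrambled values, and the difference was -0.52 ± 0.19 (unadjusted p = 0.0333, adjusted p = 0.164), or -0.27 without scrambled array 2. Psmc6 was the single gene of the complex whose mimic arrays all lay above, with 0.73, 0.73 and 0.62 against 0.49 and 0.30 with the scrambled sequence. Its difference was 0.30 ± 0.14 (adjusted p = 0.248) and 0.20 without scrambled array 2. Psmc2 had 2.22, 2.29 and 2.15 with the mimic and 2.34 and 1.70 with the scrambled sequence. The sign of its difference, 0.20 ± 0.22, rested on scrambled array 2, since it was -0.12 without it. Psmc1, Psmc3 and Psmc5 had differences of -0.05, -0.24 and -0.25, and of these the groups were apart only in Psmc3. Psmc3 had -0.21 without scrambled array 2, Psmc1 had -0.03, and Psmc5 turned to 0.13, or -0.62 without scrambled array 1.

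The 3 other base subunits are Psmd1 and Psmd2, the large scaffolds, and Psmd4, a receptor for ubiquitin chains. Psmd1 had 1.83, 1.87 and 1.57 with the mimic and 1.85 and 1.28 with the scrambled sequence. The groups overlapped, with a difference of 0.19 ± 0.22 (adjusted p = 0.596) that was -0.09 without scrambled array 2. Psmd2 and Psmd4 had differences of -0.22 and -0.23 (adjusted p = 0.433 and 0.344, limma), and the groups were apart in Psmd4. Without scrambled array 2 they were -0.05 for Psmd2 and -0.28 for Psmd4.

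The lid had the lowest median difference of any place in the complex, -0.28 over 8 genes, with 8 of 8 negative; with the percentile over all probes it was -0.13, with 6 of 8 negative. Relative to the median of all genes it was -0.23 under both scalings. Psmd11 was the lowest, with -1.77, -1.75 and -1.63 with the mimic, against -1.39 and -1.10 with the scrambled sequence. The groups were apart, and the difference was -0.48 ± 0.15 (unadjusted p = 0.0223, adjusted p = 0.135), or -0.33 without scrambled array 2. Psmd6 and Psmd3, named here after their values were seen, were close behind. The Psmd6 probe, at chr14:14946703-14946762 on the minus strand of mm9, had -0.55, -0.48 and -0.36 with the mimic and -0.03 and 0.04 with the scrambled sequence. Both scrambled arrays stood together above the mimic arrays, and the difference of -0.47 ± 0.14 (unadjusted p = 0.0157, adjusted p = 0.115) was -0.43 without scrambled array 2. Psmd3 had 1.37, 1.33 and 1.42 with the mimic and 1.60 and 2.07 with the scrambled sequence, so here the scrambled arrays were themselves unlike. Its difference was -0.46 ± 0.18 (adjusted p = 0.182) and -0.23 without scrambled array 2.

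Psmd7, the inactive partner of the deubiquitinase, and Psmd14, the deubiquitinase that cuts the chain off the substrate, had differences of -0.20 and -0.08. Psmd8, Psmd12 and Psmd13, structural subunits of the lid, had differences of -0.18, -0.01 and -0.37. None of these 5 had an unadjusted p under 0.05, and Psmd7 alone among them had groups apart. Without scrambled array 2, Psmd8 turned to 0.08 and Psmd14 to 0.09, Psmd13 was -0.07 and Psmd12 -0.12, whereas Psmd7 was -0.19. Within the scrambled group 7 of the 8 lid genes were lower on array 1 than on array 2, with a median of -0.32 for array 1 minus array 2, a larger gap than the lid median of -0.28 between the groups. Over all members 23 of 34 were lower on array 1, with a median of -0.12, against a median of -0.04 over all genes. By place these were 6 of 7 in the beta ring, 2 of 7 in the alpha ring, 4 of 6 ATPases, 1 of 3 other base subunits and 3 of 3 assembly chaperones. Without scrambled array 2 the lid median was -0.15 and without scrambled array 1 it was -0.48.

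Psmd5, Psmd9 and Psmd10 help to assemble the base and are not part of the finished complex. Psmd9 had the lowest difference of all 34 genes, with -3.67, -3.86 and -3.35 with the mimic and -3.31 and -2.41 with the scrambled sequence. The nearest values of the groups, -3.35 and -3.31, almost met, and the difference was -0.77 ± 0.30 (unadjusted p = 0.0455, adjusted p = 0.189), or -0.31 without scrambled array 2. This probe lies at chr5:123698524-123698583 on the plus strand of mm9, and a second one lies upstream, at chr5:123691881-123691940. The second had -3.47, -3.77 and -3.27 with the mimic and -3.93 on scrambled array 1. It was well above background in 2 of 4 scrambled files, both of array 1, so no difference is given for it. On the arrays that measured it the mimic values lay above the scrambled value, opposite to the order at the first probe. Psmd5 and Psmd10 had differences of -0.13 and 0.06 with overlapping groups, and of -0.04 and 0.12 without scrambled array 2.

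Set against each other, the core particle had a median difference of -0.06 over 14 tested genes (range -0.54 to 0.32, 12 negative) and the regulatory particle one of -0.21 over 20 (range -0.77 to 0.30, 16 negative). With the percentile over all probes the medians were 0.10 and -0.05. The mean level of the 14 core genes was 1.05, 1.08 and 1.08 with the mimic and 1.14 and 1.17 with the scrambled sequence. That of the 20 regulatory genes was 0.13, 0.11 and 0.16 with the mimic and 0.24 and 0.41 with the scrambled sequence. Core minus regulatory was 0.92, 0.97 and 0.92 with the mimic and 0.89 and 0.75 with the scrambled sequence, a quantity that another percentile cannot move. It differed by 0.11 between the groups, with an SD of 0.03 among mimic and 0.10 among scrambled arrays. The gap between the 2 scrambled arrays, 0.89 and 0.75, was thus wider than that between scrambled array 1 and the nearest mimic array. The difference of the medians, 0.15 in the same direction, was 0.04 without scrambled array 2 and 0.16 without the 3 assembly chaperones. No test was made of the particles as lists, since their genes were chosen with earlier results of these data known.

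**Figure D3:**
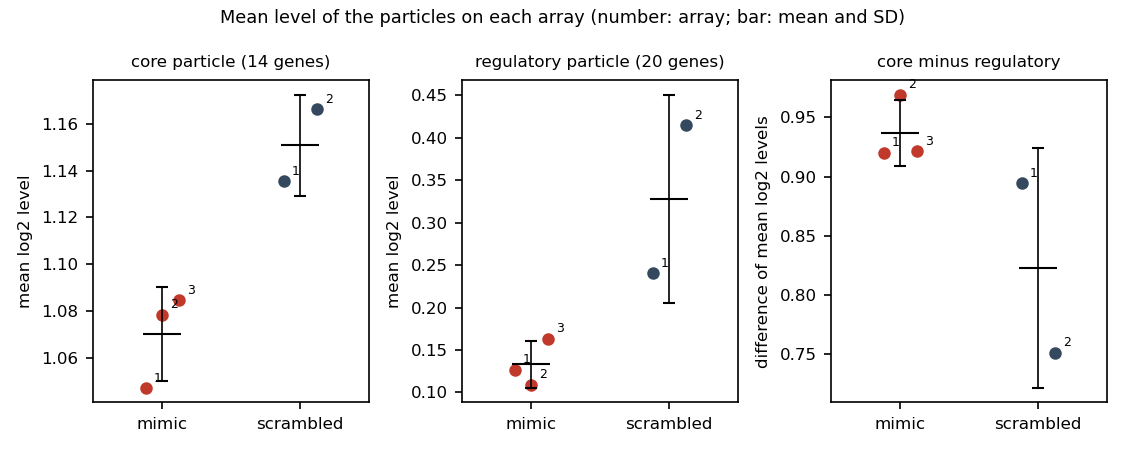
Mean log2 level of the 14 core genes (left), of the 20 regulatory genes (middle) and core minus regulatory (right) on each array, mimic left and scrambled right in each panel; points are arrays with their number, bars the mean and SD (n = 3 mimic, n = 2 scrambled). The panels have different vertical ranges, and in the right one scrambled array 1 (0.89) lies nearer to the mimic arrays (0.92 to 0.97) than to scrambled array 2 (0.75).

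Probes at 2 places in 1 transcript gave unequal differences for several genes; such probes also differ in brightness, and position was not tested apart from it. Of the members, 7 had 2 probes at least 200 bases apart, and the pairs were Psma4, Psmb5, Psmc1, Psmc3, Psmd9, Psmd10 and Psmd12. The upstream difference was the lower one for Psmb5 (-0.56, downstream -0.15), Psmc1 (-0.26 ± 0.34 and -0.05), Psmc3 (-0.65 and -0.24), Psmd12 (-0.70 and -0.01) and, by a small margin, Psmd10 (0.06 and 0.10). Over all such transcripts it was the lower one in 69.4%. In Psmd10 this order rested on scrambled array 2. Its upstream minus downstream signal was 0.66, 0.67 and 0.78 with the mimic, 0.35 on scrambled array 1 and 1.135 on scrambled array 2. By the same measure both scrambled arrays lay above every mimic array in Psmb5, Psmc3 and Psmd12, whereas the groups overlapped in Psmc1 and Psma4. Psma4 had -0.19 upstream and -0.21 downstream, and the upstream Psmd9 probe, not well above background on scrambled array 2, is left out. The upstream probe of Psmd12, whose sequence is printed above and which starts at base 287 of the transcript, had -2.86, -3.22 and -3.12 with the mimic and -2.36 and -2.37 with the scrambled sequence. Here both scrambled arrays stood together, and the difference was -0.70 ± 0.16 (unadjusted p = 0.006, adjusted p = 0.075 over all probes). The probe that stood for Psmd12 starts at base 1335 and had 1.13, 1.005 and 1.11 with the mimic and 1.201 and 0.99 with the scrambled sequence, with groups that overlapped. The upstream probe of Psmc3, 258 bases before the other, had 0.70, 0.54 and 0.42 with the mimic and 1.09 and 1.32 with the scrambled sequence. Its difference was -0.65 ± 0.16 (adjusted p = 0.088 over all probes), with the groups apart. A second Psmc2 probe overlapped the first and gave 0.28 beside 0.20. No second probe of a member passed the threshold.

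**Figure D4:**
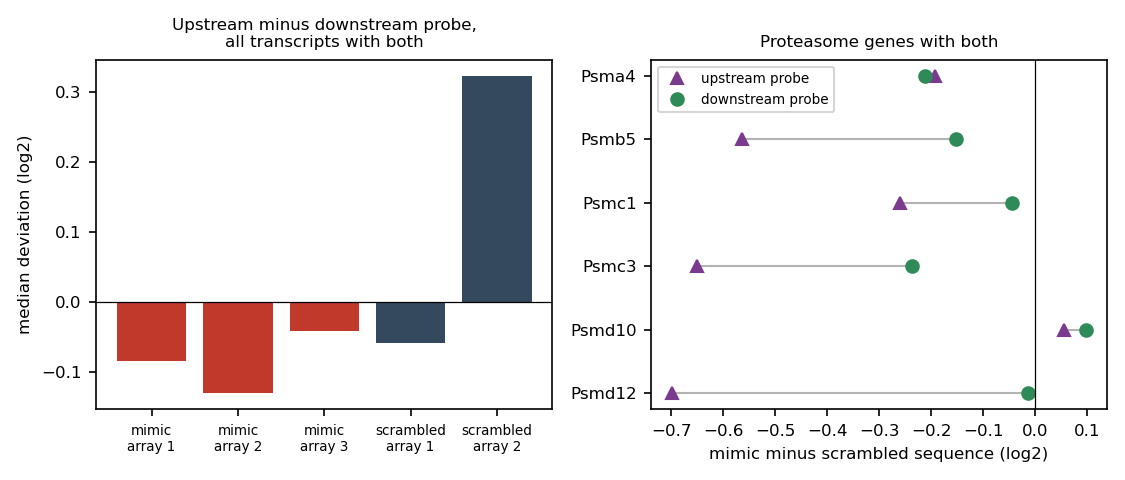
Left, median deviation of upstream minus downstream log2 signal on each array over 1383 transcripts with both probes, mimic arrays left of scrambled arrays; scrambled array 2 reaches 0.32, the other 4 arrays lie between -0.13 and -0.04. Right, mimic minus scramble difference (x axis, log2) at the upstream probe (triangle) and the downstream probe (circle) of 6 proteasome genes whose probes were both well above background in every file, widest apart in Psmd12 (-0.70 and -0.01).

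AATAAA and ATTAAA are hexamers that commonly precede the end of a transcript, and probes that hold one (searched on the strand of the probe) were set apart. Their distance to the 3′ end was not measured, and a hexamer can also lie elsewhere. Over all genes tested the median difference was 0.10 for the 2611 with such a probe and -0.09 for the 10517 without. Among the proteasome genes it was -0.03 for 8 with a hexamer and -0.16 for 26 without. In the regulatory particle 4 genes with one had a median of -0.14 and 16 without one -0.21. Whether probe position contributed to the core and regulatory medians was not tested beyond these values.

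No gene of the lists of proteasome partners was called. The 6 lists written for them, with earlier results of these data known, held 46 gene names on the array, 41 of them tested, of which 0 were called, 2 had a positive and 8 a negative difference at an unadjusted p under 0.05, and the median was -0.09. Over all genes 5.11% were called, and 11.2% had a positive and 14.1% a negative difference at that unadjusted p. The 2 positive ones were Fbxo7 and Uba6. The 8 negative ones were Psmb10, Psme1, Psme3, Psmg3, AI314180, Nfe2l1, Ddi2 and Ubqln4. Partners other than Psmb8, Psmb9 and Psmb10 are named without a rule set beforehand, with their values known. Of the immunoproteasome subunits, Psmb8 and Psmb9 were well above background in 0 of 10 files. Psmb10 had -3.05, -3.42 and -3.15 with the mimic and -2.28 and -2.53 with the scrambled sequence. Its groups were well apart, and the difference of -0.80 ± 0.18 (unadjusted p = 0.0040, adjusted p = 0.0616) missed the threshold. Psme1, part of the activator that the immunoproteasome often carries, had a difference of -0.43 (adjusted p = 0.155), and Psme3, a nuclear activator, had -0.82 (adjusted p = 0.125). Without scrambled array 2 these were -0.28 and -0.44. Psme4, another activator, had a positive difference of 0.46 (adjusted p = 0.273) with the groups apart, and 0.82 without that array. Nfe2l1, the factor that induces proteasome genes when proteolysis is impaired, had -3.69, -3.47 and -3.57 with the mimic and -3.24 and -2.17 with the scrambled sequence, a difference of -0.88 ± 0.32 (adjusted p = 0.162) that was -0.34 without scrambled array 2. Ddi2, the protease that activates it, had -4.14, -3.99 and -4.08 with the mimic and -3.50 and -3.03 with the scrambled sequence, a difference of -0.80 ± 0.18 (adjusted p = 0.0654), or -0.57 without it. In both, every mimic array lay below every scrambled array. Their list, on transcriptional control of proteasome genes, held 7 tested genes, 4 negative and 3 positive, with a median of -0.08. Nfe2l2 (0.30) and Bach1 (0.38) were higher on every mimic array than on both scrambled arrays, and had 0.16 and 0.19 without scrambled array 2. Vcp, Sel1l and Syvn1 had -0.09, -0.08 and 0.0031, or -0.0026, 0.07 and -0.04 without that array. Fbxo7, a ubiquitin ligase subunit known to bind the proteasome inhibitor Psmf1, had a positive difference of 0.53 ± 0.15 (adjusted p = 0.104). Of the assembly factors, Psmg3 had -0.35 (adjusted p = 0.183, limma) with the groups apart. Psmg1, Psmg2, Pomp and Psmg4 had -0.14, -0.06, -0.18 and 0.17, or -0.28, -0.31, -0.38 and 0.09 without scrambled array 2. Uba6 had 0.42, AI314180 -0.66 and Ubqln4 -0.95. Of these, Uba6 was well above background in 3 of 4 scrambled files and Ubqln4 in 3 of 6 mimic files. Without scrambled array 2 AI314180 had -0.37 and Ubqln4 -0.32.

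Other complexes of many subunits were set beside the proteasome on the same scale. Over all genes 54.7% had a negative difference, and limma called 2.35% lower and 2.77% higher. At an unadjusted p under 0.05 the shares were 14.1% in the negative and 11.2% in the positive direction. The chaperonin ring, which folds actin and tubulin, had a median of -0.32 with 8 of 8 negative, and 1 of the 8, Cct3, fell (-1.01 ± 0.14, adjusted p = 0.0181). Without scrambled array 2, Tcp1 turned to 0.0018 and Cct4 to 0.05. Cct2, Cct3, Cct5, Cct6a, Cct7 and Cct8 had -0.21, -0.97, -0.16, -0.25, -0.12 and -0.25 without it. Ribosomal protein genes had a median of -0.18 with 62 of 71 negative and 0 called (4 at an unadjusted p under 0.05). The COP9 signalosome, which is built like the lid, had a median of -0.07 over 8 genes with 0 called (0 at an unadjusted p under 0.05), and translation initiation factor 3, whose core shares the same architecture, 0.00 over 12 with 0 called (1 at an unadjusted p under 0.05). The lid median of -0.28 thus lay between those of the chaperonin ring and the ribosomal proteins when all arrays were used. Without scrambled array 2 the lid median was -0.15, and medians of the other complexes were not worked out. Another percentile for the scaling moves all these medians by the same amount.

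Muscle genes differed between the same arrays. The myoblast markers had a median of -0.78, and of the 4 tested 0 were called and 4 had a negative difference at an unadjusted p under 0.05 (limma). Over all genes 14.1% did so, and 2.35% were called lower and 2.77% higher. Myod1, Des, Cdh15 and Itga7 had -1.26, -0.87, -0.70 and -0.44, and -0.73, -0.40, -0.57 and -0.27 without scrambled array 2. Of 10 differentiation markers 8 fell, Myog among them (-2.10 ± 0.21, adjusted p = 0.0093), and the mean level of the 10 was 0.23, 0.27 and -0.22 with the mimic against 1.54 and 1.73 with the scrambled sequence. Myl4 went the other way, with a difference of 0.31 (adjusted p = 0.254, limma) and every mimic array above both scrambled arrays. Ckm was well above background in 4 of 6 mimic files and had -6.27 on mimic array 3, and without it the mean of the other 9 was 0.51, 0.57 and 0.46 with the mimic against 1.87 and 2.12 with the scrambled sequence. Of 8 proliferation markers 3 rose (Mki67, Ccna2 and Ccnb1). In sign 6 of the 8 were positive and 2 negative, Mcm2 (-0.12) and Mcm5 (-0.36). The mean level of the 8 was -0.82, -0.82 and -0.78 with the mimic against -1.42 and -1.33 with the scrambled sequence. The part of the differentiation state in the proteasome values was not tested. In size, the differentiation markers had a median of -1.54, and no proteasome gene had a difference past 0.77 in either direction at the probe that stood for it.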

How the data were processed

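Agilent Feature Extraction made the deposited spot intensity values from 1-colour scans: linear, with background subtracted and spatial trends removed per the file headers, which give its version as 12.0.0.7 and place the probes on mm9. Version 10.7.3.1 is given per the submitters' processing notes. A value table was deposited beside them, with linear intensity that was quantile-normalised, as seen from the values, and it served as an alternative. The authors' 0 or 1 marks for background, outliers and saturation were used as deposited.

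Control spots and outlier spots (157 to 270 per file) were dropped, log2 was taken, repeated spots were averaged per probe, and each file was set to 0 at the 75th percentile of the 13029 probes that passed the background mark in all 10 files. The scans of a position were averaged. Probes that passed that mark in at least 4 of 10 files were kept (16786 of 55681), which gave 13178 genes by the name in the file, of which 13128 had a value on every array. The fit was made in R 4.3.3 by limma 3.58.1 (lmFit, eBayes; residual df 3, prior df 2.92), p-values were adjusted by Benjamini-Hochberg across all 13128 genes, and the script was first tested on simulated data. The independent transfections stated in the labels do not match the 5 slide positions, and nothing in the scanner output shows separate cultures. The p-values therefore speak only of the spread between 5 arrays, which may be technical, and that number limits the precision.

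The members, the lists and the tests were chosen with earlier results of these data known. Named in full were members past the threshold, the 3 highest and 3 lowest differences in each particle and the catalytic subunits; other members are given by their difference. Replicate numbers were not used to pair the samples in the main fit: mimic and scrambled files of 1 number had correlations of deviations of 0.38, -0.04, -0.35 and -0.11. Both scans of 1 array had 0.29, 0.38 and 0.50 for mimic arrays 1 to 3, and 0.55 and 0.59 for scrambled arrays 1 and 2. The value for number 1 was thus as high as that for the scans of some arrays, and the other numbers had negative values. Alternatives were 10 separate files with and without a replicate block, a scan block, each scan alone, normexp with an offset of 50, other scalings, the filter, the mean of all probes, trended and robust eBayes, and each array left out.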

Additional observations from a re-analysis of the deposited data

How the results depend on the processing

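With the 10 files as separate arrays and no replicate block, limma called 4509 of 13049 genes, and of the 34 members 7 lower and 1 higher. With the replicate block 1947 of 13049 genes and 1 of 34 members (Psmd6, lower) were called. With scan as a block and position as a random block 1457 of 13049 genes and 1 of 34 members were called, again Psmd6. Without a filter on dim probes 17 genes were called. Leaving out 1 array at a time gave 47 to 4344 genes, 0 to 7 members called lower and 0 to 2 higher, with the highest counts without scrambled array 1. Over these, the median ranged from -0.21 to -0.087 for all members, from -0.12 to -0.043 for the core and from -0.26 to -0.10 for the regulatory particle, and core minus regulatory from 0.041 to 0.16. The percentile over all probes gave medians of 0.043 for members, 0.10 for the core and -0.049 for the regulatory particle. Quantile normalisation gave -0.063, -0.0063 and -0.15 for the same lists. The value table gave -0.064 for members and -0.15 for the regulatory particle, and normexp -0.15 for the regulatory particle too.

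Some differences near 0 changed sign. Psma1 had 0.046 with the replicate block, 0.089 on the first scan, 0.15 with the percentile over all probes, 0.0053 after quantile normalisation and 0.022 in the value table. Psmb6 had 0.0096 with the replicate block, 0.074 on the second scan, 0.024 with normexp, 0.14 with the percentile over all probes, 0.095 after quantile normalisation and 0.11 in the value table. Psmb5 had 0.0056 with the percentile over all probes, and Psmd9 had 0.44 with the mean of its probes, one of which was not well above background on scrambled array 2. With 1 array left out at a time, the range was -0.19 to 0.18 for Psma1, -0.012 to 0.66 for Psma3, -0.41 to 0.027 for Psma4, -0.14 to 0.37 for Psma5, -0.13 to 0.063 for Psmb6, -0.12 to 0.52 for Psmc2 and -0.091 to 0.48 for Psmd1. The cause was not tested.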
